A study of Mus musculus with 4 samples.

Results

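The comparison described here is that of liver from adrenalectomised (ADX) mice with liver from sham-operated mice early in the light phase, at zeitgeber time (ZT) 2, on a clock that starts when the lights come on. It rests on 2 of the 4 arrays of the series, the sham ZT2 array and the ADX ZT2 array, chosen by the operation and time in their titles. All animals were male C57BL/6 mice. The ADX mice had lost both adrenal glands and drank 0.9% NaCl, while the sham-operated mice kept their glands and had chow and water freely. The other arrays hold sham and ADX liver at ZT14, in the dark phase. The labels give no age and do not state whether an array holds RNA of 1 mouse or of several, so the difference between the ZT2 arrays has no replicate check and no p-value.

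The adrenal cortex releases corticosterone, the main glucocorticoid of mice, in a daily rhythm that is high around the start of the dark phase and low early in the light phase. In the liver, glucocorticoids act through a nuclear receptor that binds DNA near genes of glucose synthesis, amino acid breakdown and stress responses. Removal of the whole gland also takes away aldosterone and adrenaline, and salt in the drinking water replaces the sodium lost without aldosterone.

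The signal of each probe set is an intensity, scaled so that all arrays had the same 2% trimmed mean, and values under a floor of 3.91 units were set to it. Present calls, the deposited calls that a transcript was detected, were made for 5835 of 12422 probe sets on the sham ZT2 array and 5779 on the ADX ZT2 array. The summed signal of 5 measured hepatocyte markers was 25669 in sham and 25334 in ADX. That of the 11 blood and immune markers on the array was 1377 and 1397, and that of the 6 stellate cell markers on it was 213 and 267. Of the 5 measured stellate cell markers, 4 were higher in ADX. No bile duct or skeletal muscle marker was Present on either ZT2 array. In whole liver, fewer cells of a type and less RNA per cell cannot be told apart.

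The ZT2 arrays were close to each other. Among probe sets Present on both arrays, the spread of the log2 difference of ADX over sham, as a standard deviation computed from the median absolute deviation, was 0.43 below a mean signal of 20 units and 0.17 at 100 units or more. For 119 genes with 2 bright probe sets, the difference between the probe sets of a gene had a spread of 0.20 by the same measure. Bright probe sets were therefore read at a lower fold than dim ones. A bright call needed a Present call on both ZT2 arrays, a mean signal of 100 units or more and a 1.5-fold difference. It was met by 45 of 1944 probe sets (2.31%), of which 23 (1.18%) were higher in ADX and 22 (1.13%) lower. That split was 10 higher and 75 lower with the signals as deposited, 26 and 16 with quantile normalization, and 5 higher and 15 lower at a mean signal of 200 units or more. Just inside the line were Nit1 at -0.59 and Cbfb at 0.59 on the log2 scale, and just outside it were a probe set of Dnajc3 at 0.58 and Ciao1 at 0.57. At ZT14 the same rule was met by 125 of 1952 probe sets (6.4%). With no minimum of signal, 160 of 6247 probe sets Present on at least 1 ZT2 array (2.56%) differed at least 2-fold with a Present call on the brighter array, 108 higher and 52 lower. That split turned to 69 higher and 90 lower with the signals as deposited, and to 68 and 80 with quantile normalization. Of the 160, 120 lacked a Present call on the dimmer side and 128 had a mean signal under 20 units. The dimmer signal stood at the floor for 42 of them. Only 8 had a mean signal of 100 units or more, 2 higher and 6 lower.

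**Figure D1:**
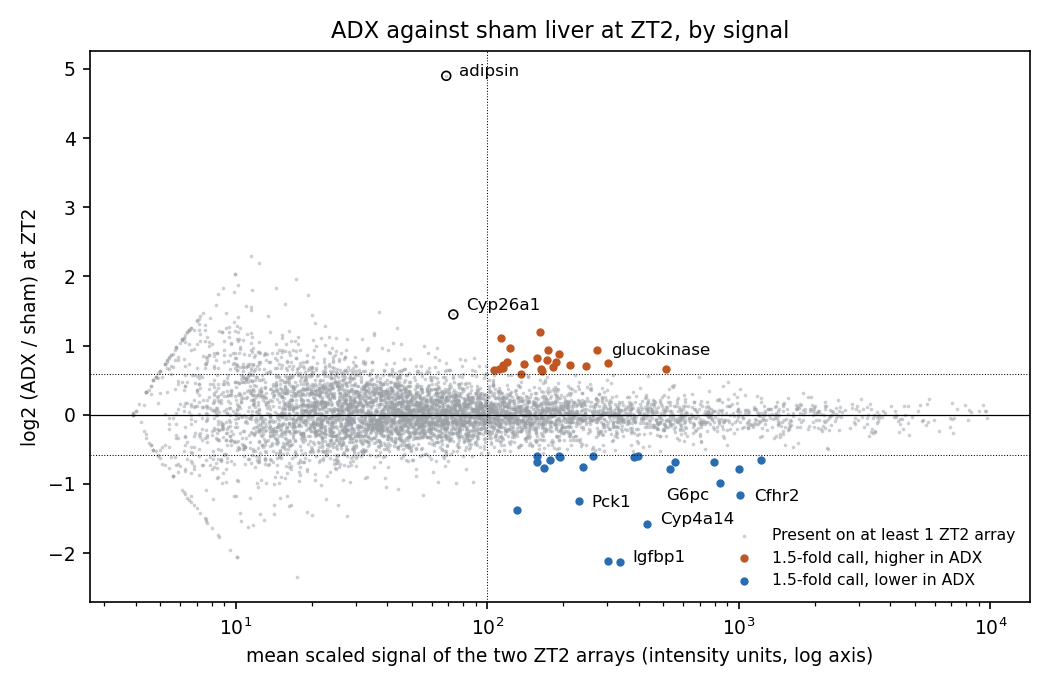
Each point is a probe set Present on at least 1 ZT2 array, with its mean scaled signal on the horizontal axis (intensity units, log axis) and the log2 of ADX over sham on the vertical axis. Coloured points are the 45 bright calls, 23 higher and 22 lower; dotted lines mark 1.5-fold and 100 units, and open circles mark adipsin and Cyp26a1, which lie under 100 units.

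The difference of greatest size at ZT2 was that of adipsin, also called complement factor D, a serine protease of the alternative complement pathway that adipocytes are known to secrete. Its probe set read 4.4 units and Absent on the sham ZT2 array and 132.7 units and Present on the ADX ZT2 array, at least 29.9-fold higher in ADX. It was also 4.2 units and Absent on sham ZT14 and 101.3 units and Present on ADX ZT14, at least 24.1-fold higher. Both ADX arrays thus stood apart from both sham arrays. This probe set has no symbol in the platform table; the name is that of the deposited description, and it was picked after its value was seen. The other adipose markers, of which 3 were on the array under a symbol, did not move with it. Their summed signal was 17.3 units on sham ZT2, 17.8 on ADX ZT2, 18.6 on sham ZT14 and 13.4 on ADX ZT14. Adipoq, which encodes the adipocyte hormone adiponectin, read 3.9 units in sham and 5.7 in ADX at ZT2 and was Absent on all 4 arrays. Retn, which encodes resistin, stood at the floor of 3.9 units on all 4. Fabp4, a fatty acid carrier of adipocytes and macrophages, was Present at 9.4 units in sham and 8.1 in ADX at ZT2, and at 10.8 and 5.6 at ZT14. In an additive limma fit of operation and time over all 4 arrays, the operation effect of adipsin was 4.75 on the log2 scale (SE 0.17). The fit took probe sets Present on at least 2 arrays, which this one met only on the ADX arrays where it was high, so its p-value supports nothing and is not given.

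Among bright genes, some of the largest differences were in Igfbp1, Pck1 and G6pc, genes of fasting and glucose release, which read lower in ADX. Igfbp1 encodes a hepatic binding protein of insulin-like growth factors and is a textbook target of glucocorticoids and of repression by insulin. Its signal was 547 units in sham and 125 in ADX, 4.37-fold lower in ADX, against 24.1 and 34.6 units at ZT14. The sham ZT2 array was thus the highest of the 4 for Igfbp1, and the ADX ZT2 array lay between it and both ZT14 arrays. Its probe set has the suffix _f_at, which marks probes shared within a sequence family, and a second probe set of the gene stood at the floor on all 4 arrays.

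Pck1, the cytosolic phosphoenolpyruvate carboxykinase that opens gluconeogenesis from oxaloacetate, read 326 units in sham and 138 in ADX, 2.36-fold lower. At ZT14 the values were 579 and 498 units, both above both ZT2 values. G6pc, the catalytic subunit of glucose-6-phosphatase and the last step of glucose release, read 1117 units in sham and 563 in ADX, 1.98-fold lower. At ZT14 it read 495 and 622 units, so the sham ZT2 array alone was high. Glucokinase carries out the opposite step, the phosphorylation of glucose on entry to the hepatocyte, and is known for its induction by insulin. Its probe set, named from the deposited description after its value was seen, read 188 units in sham and 358 in ADX at ZT2, 1.91-fold higher. At ZT14 the order was turned, with 484 units in sham and 305 in ADX. Across the 4 arrays the glucokinase signal spanned 188 to 484 in sham and 305 to 358 in ADX.

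**Figure D2:**
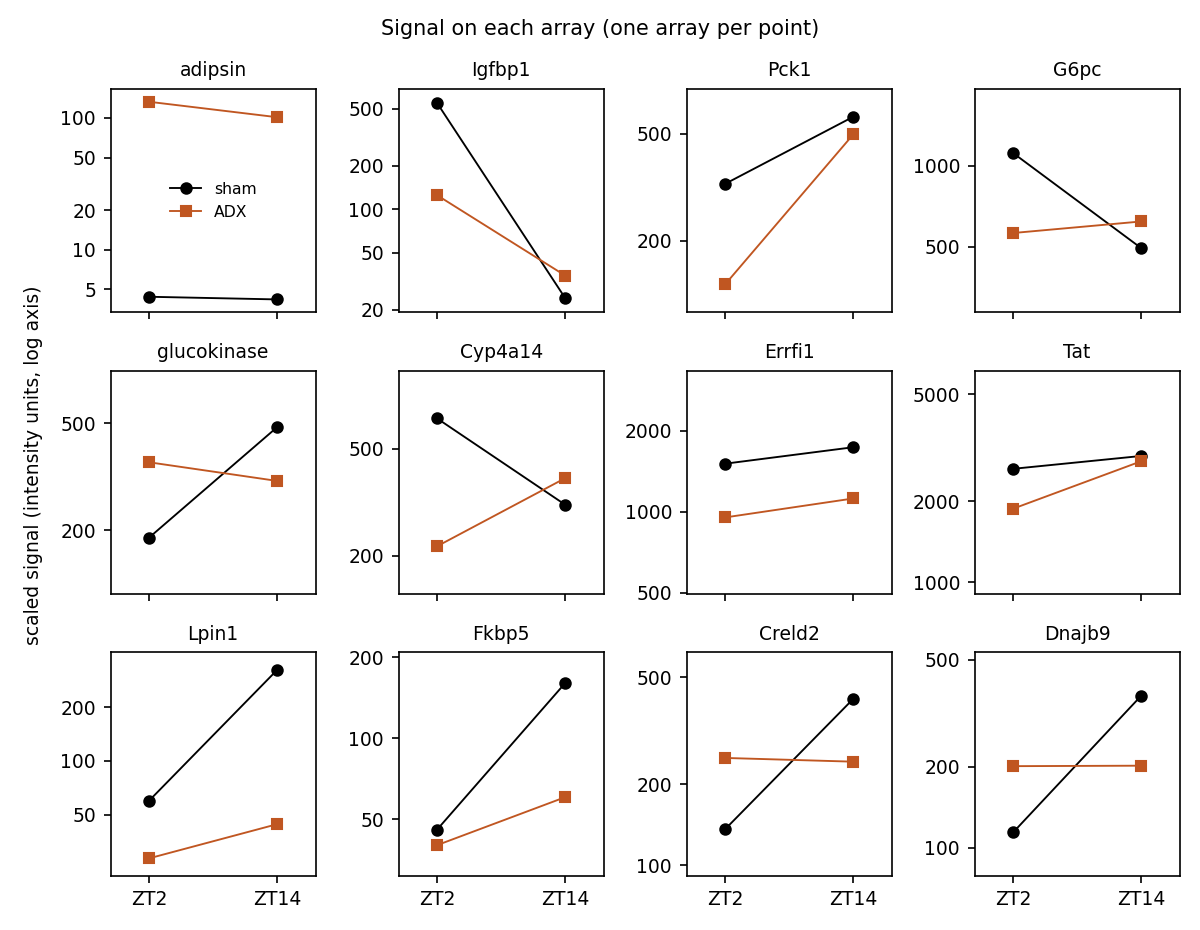
Scaled signal (intensity units, log axis, a scale for each panel) of 12 genes on the 4 arrays, with sham as circles and ADX as squares and a line joining the times of each operation; each point is 1 array and has no error bar. Adipsin is apart at both times, Igfbp1 and G6pc differ most on the sham ZT2 array, and glucokinase, Creld2 and Dnajb9 cross between ZT2 and ZT14.

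The other genes of glucose output were close between the arrays. Of 16 measured members of that list, 11 had a lower and 5 a higher signal in ADX. Pck1 and G6pc were the only bright calls, among 12 bright members, and the median log2 difference was -0.07 beside 0.01 over all 4803 measured genes. Bright calls among all 1587 bright genes numbered 18 higher (1.13%) and 16 lower (1.01%). Fbp1, the fructose bisphosphatase of gluconeogenesis, read 3648 units in sham and 3074 in ADX (-0.25). Pcx, which makes oxaloacetate from pyruvate, read 167 and 161 units (-0.05). Slc37a4, the carrier that brings glucose 6-phosphate to the phosphatase, read 317 and 270 units (-0.23), while at ZT14 it read 879 in sham and 439 in ADX, 2.00-fold lower. The glucose transporter Slc2a2 read 573 and 524 units (-0.13). Ppp1r3c, a glycogen targeting subunit of protein phosphatase 1, was the highest member at 70.4 units in sham and 108.7 in ADX (0.63), with a mean signal too low for a bright call.

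The promoters of Igfbp1, Pck1 and G6pc are shown because these genes of fasting and glucose release each had a lower bright call at ZT2. They are the 250 bases before the start of the gene in RefSeq (GRCm38.p6), on the gene's strand. Each was searched on both strands for AGAACA, found in glucocorticoid receptor sites, TGTTTTG, a core found in insulin response elements, TGACG, found in cAMP response elements, and the endoplasmic reticulum stress element, which is CCAAT, 9 bases of any kind and CCACG. Matches are in capitals.
Igfbp1, chr11:7197537-7197786, plus strand: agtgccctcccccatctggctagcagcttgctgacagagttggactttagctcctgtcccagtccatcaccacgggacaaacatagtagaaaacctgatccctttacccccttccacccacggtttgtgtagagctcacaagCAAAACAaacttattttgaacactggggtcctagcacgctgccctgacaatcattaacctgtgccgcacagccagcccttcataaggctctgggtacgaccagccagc
Pck1, chr2:173152823-173153072, plus strand: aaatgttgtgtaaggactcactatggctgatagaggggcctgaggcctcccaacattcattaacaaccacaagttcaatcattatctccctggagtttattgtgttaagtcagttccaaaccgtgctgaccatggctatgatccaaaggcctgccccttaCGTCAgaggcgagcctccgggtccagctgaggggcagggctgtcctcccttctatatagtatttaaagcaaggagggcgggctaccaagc
G6pc, chr11:101367466-101367715, plus strand: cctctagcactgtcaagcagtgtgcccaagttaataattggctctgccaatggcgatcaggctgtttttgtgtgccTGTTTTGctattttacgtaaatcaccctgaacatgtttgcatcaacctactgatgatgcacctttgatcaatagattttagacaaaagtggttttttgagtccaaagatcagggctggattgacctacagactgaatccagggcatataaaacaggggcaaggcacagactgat
Igfbp1 held TGTTTTG on the minus strand at bases -108 to -102 from the start, and G6pc held it on the plus strand at -174 to -168. Pck1 held TGACG on the minus strand at -90 to -86. Of all 32841 promoters of this length, 5.56% held TGTTTTG, 17.8% TGACG and 16.1% AGAACA. A match of letters describes the window and shows no binding.

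The wider list of glucocorticoid targets leaned lower in ADX at ZT2, and few members were called. Of 35 measured members, 24 had a lower and 11 a higher signal, and the median log2 difference was -0.16, beside 0.01 over all genes. By the 2-fold rule, 3 were lower (Igfbp1, Pck1 and Lpin1) and 1 was higher (Cdkn1a), where all measured genes gave 37 lower (0.77%) and 71 higher (1.48%). Of 15 bright members, 4 were lower (Igfbp1, Pck1, G6pc and Errfi1) and 1 was higher (Bcl6), beside 1.01% and 1.13% of all bright genes. Igfbp1, Pck1 and G6pc are the genes already described above. Errfi1, an inhibitor of epidermal growth factor receptor signalling, was lower by both of its probe sets at both times. The brighter one read 1508 units in sham and 952 in ADX at ZT2 and 1737 and 1120 at ZT14. The other read 673 and 390 units at ZT2 (-0.79) and 805 and 352 at ZT14 (-1.19). Both sham arrays thus lay above both ADX arrays by either probe set.

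Lpin1, a phosphatidate phosphatase that also acts as a transcriptional coactivator, read 59.9 units in sham and 28.5 in ADX, 2.1-fold lower. Its ZT14 gap was wider, with 324 units in sham and 44.3 in ADX. Several textbook receptor targets likewise had a smaller gap at ZT2 than at ZT14. Fkbp5, which binds the receptor's chaperone complex, read 45.8 and 40.1 units at ZT2 (-0.19) and 161 and 60.5 at ZT14 (-1.41). Zbtb16, a zinc finger repressor, read 22.7 and 14.2 units at ZT2 (-0.68) and 114 and 14.5 at ZT14 (-2.98). St3gal5, a ganglioside synthase, read 76.6 and 60.9 units at ZT2 (-0.33) and 391 and 144 at ZT14 (-1.44). For Lpin1, Fkbp5, Zbtb16 and St3gal5 the sham ZT14 array was the highest of the 4. Other members had the wider gap at ZT2. At ZT2 and ZT14, Igfbp1 was at -2.13 and 0.52, Pck1 at -1.24 and -0.22, and G6pc at -0.99 and 0.33. The whole list showed no such change, with a median of -0.16 at ZT2 and -0.17 at ZT14. Of its 35 measured members, 24 were lower at ZT2 and 22 at ZT14. The receptor itself, Nr3c1, read 17.4 units in sham and 15.5 in ADX at ZT2.

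Cdkn1a, the cyclin-dependent kinase inhibitor p21, was higher in ADX at ZT2, with 15.9 units in sham and 34.3 in ADX, but with the signals as deposited its log2 difference of 0.94 was under 2-fold. Bcl6, a transcriptional repressor, read 127 units in sham and 200.3 in ADX at ZT2 and 100.4 and 96.2 at ZT14. With the signals as deposited it was at 0.49 and short of 1.5-fold. The metallothionein Mt2, a metal-binding protein, read 25.8 and 50.5 units at ZT2 (0.97) and 207 and 328 at ZT14 (0.67). Its neighbour Mt1 read 47.8 and 50.3 units at ZT2 (0.07) and 307 and 861 at ZT14 (1.49). Dusp1, a phosphatase of MAP kinases, read 55.3 and 80.2 units at ZT2 (0.54) and 166 and 127 at ZT14 (-0.38). The direction of the list median was the same under every alternative scaling, floor and probe set choice tried, between -0.34 and -0.11, where the lowest comes from the deposited signals, which shift all probe sets Present on both arrays by a median of -0.17.

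Enzymes of amino acid breakdown differed little. Of 24 measured members, 18 had a lower and 6 a higher signal in ADX, the median was -0.10, and none of 21 bright members was called. Over all 1587 bright genes, 18 (1.13%) were called higher and 16 (1.01%) lower, so a list of this size can hold none. Tat, the tyrosine aminotransferase long used as a glucocorticoid marker of liver, read 2644 units in sham and 1879 in ADX (-0.49), against 2952 and 2822 at ZT14 (-0.07). With the signals as deposited its ZT2 difference was -0.66, past 1.5-fold. Tdo2, which opens tryptophan breakdown, gave different sizes by probe set. The brighter one read 4702 units in sham and 3964 in ADX (-0.25), and the dimmer one 688 and 429 (-0.68), which is past 1.5-fold. Aass, the first enzyme of lysine breakdown, had the lowest value of the list, with 573 units in sham and 397 in ADX (-0.53). Of the 7 measured urea cycle genes, 6 had a lower signal and none was called. Their median was -0.26. The lowest was Ass1, which joins citrulline to aspartate, at 40.6 units in sham and 14.7 in ADX at ZT2 (-1.47) and 31.6 and 75.4 at ZT14 (1.26). Its brighter ZT2 array was Marginal, so it could not be called. Cps1, which feeds ammonia into the cycle, read 4261 and 4160 units (-0.03).

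**Figure D3:**
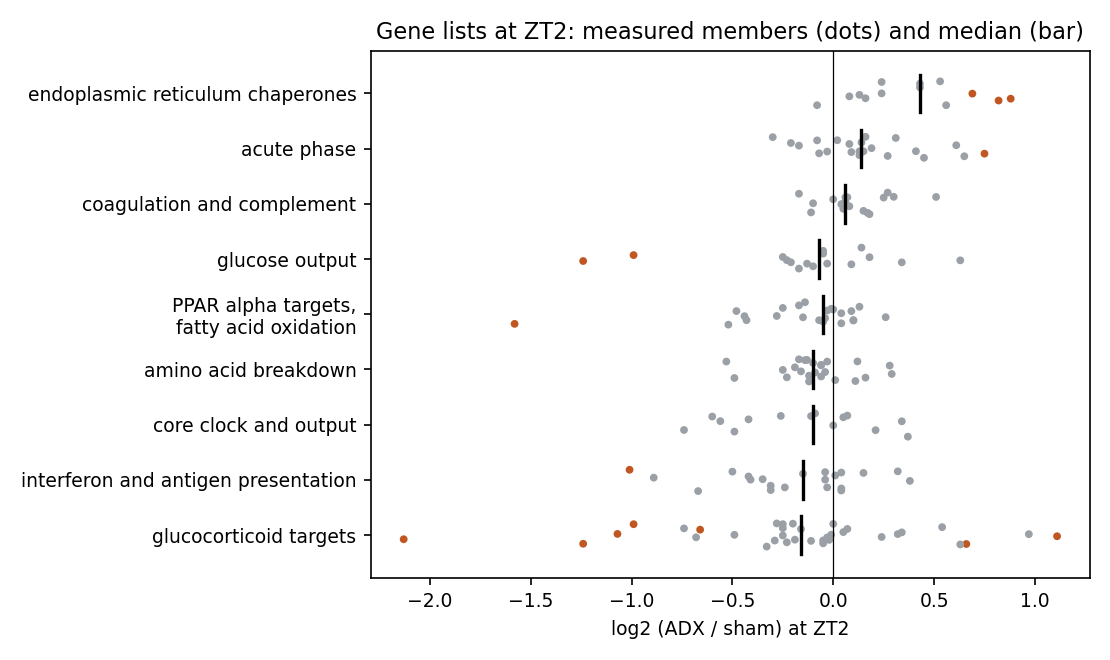
Log2 of ADX over sham at ZT2 for the measured members of 9 gene lists; each dot is a gene (vertical jitter only), a coloured dot is a gene past 2-fold or with a bright call, and the bar is the list's median. The medians of these 9 lists run from -0.16 for glucocorticoid targets to 0.43 for endoplasmic reticulum chaperones, beside 0.01 over all measured genes. Interferon and antigen presentation is at -0.15. Among lists not drawn, urea cycle is at -0.26, immediate early at -0.16 and glycolysis and lipogenesis at -0.14.

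No core clock gene was called at this time. Over all 4803 measured genes, 71 (1.48%) were past 2-fold higher and 37 (0.77%) lower, so a list of this size can hold none. Of 14 measured members, 8 had a lower and 6 a higher signal in ADX, and the median was -0.10. Arntl, the activator also called Bmal1, read 74.9 units in sham and 69.6 in ADX at ZT2, both above the 5.5 and 9.3 units at ZT14. Nr1d1, the repressor also called Rev-erb alpha, read 37.9 and 25.6 units (-0.56). Tef, an output factor of the clock, had the lowest difference, at -0.74. Rora, the activator that competes with Nr1d1, read 96.8 and 63.9 units at ZT2 (-0.60) and 62.6 and 37.9 at ZT14 (-0.73). Bhlhe40, a light- and feeding-responsive repressor, read 34.8 and 44.0 units (0.34). Except for Csnk1d, a kinase of the period proteins, the measured clock genes had a mean ZT2 signal under 100 units, where the spread between the arrays was 0.24 or more.

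Targets of the fatty acid receptor PPAR alpha held 1 called gene among 23 measured members. Over all measured genes, 0.77% were past 2-fold lower, and 1.01% of bright genes had a lower bright call. Cyp4a14, a fatty acid omega-hydroxylase, read 649 units in sham and 217 in ADX at ZT2, 2.99-fold lower, and 310 and 389 units at ZT14. The sham ZT2 array was the highest of the 4 and the ADX ZT2 array the lowest. The 23 measured members had a median of -0.05, with 15 lower and 8 higher in signal. Other members were read after their values were seen. Cyp4a10, from the same enzyme family, was at -0.44 at ZT2 and 0.34 at ZT14. Ehhadh, the peroxisomal bifunctional enzyme, was at -0.48 and 0.47, and Acot1, a cytosolic acyl-CoA thioesterase, at -0.52 and 0.38. Vnn1, a pantetheinase, was at -0.43 and 0.25. None of these 4 passed 1.5-fold, and they were picked for their signs. Over the 23 members, 12 were lower at ZT2 and higher at ZT14, 3 were lower at both times, 5 higher at both, and 3 the other way round. The probe set described as HMG-CoA lyase, an enzyme of ketone body synthesis, read 984 units in sham and 613 in ADX at ZT2, 1.61-fold lower, and 834 and 898 at ZT14. It is an _f_at probe set named from the deposited description.

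The endoplasmic reticulum (ER) chaperones were the pathway list with the highest median. These proteins fold and proofread secreted proteins, and their genes are known to rise together in the unfolded protein response. Of 13 measured members, 12 had a higher signal in ADX at ZT2 and 1 a lower one, with a median of 0.43. Each gene is represented there by its brightest probe set. Over all 20 probe sets of the list's genes that were Present on a ZT2 array, 16 were higher and 4 lower, with a median of 0.31. Canx, which encodes calnexin, was not measured by its brightest probe set, and its dimmer one read 21.9 units in sham and 13.6 in ADX (-0.69). Among 12 bright members, 3 were called higher and none lower, beside 1.13% and 1.01% of all bright genes. Creld2, a secreted ER stress protein, read 136 units in sham and 251 in ADX, 1.84-fold higher. Dnajb9, an ER co-chaperone of the DnaJ family, read 114 units in sham and 201 in ADX, 1.76-fold higher, and 114 and 159 by its other probe set (0.47). Pdia4, a protein disulphide isomerase, read 139 and 225 units, 1.61-fold higher. With the signals as deposited Pdia4 was at 0.51 and not called.

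The remaining members lay below 1.5-fold. Pdia3, the isomerase that works with calnexin and calreticulin on glycoproteins, read 350 and 518 units (0.56). Herpud1, a part of the degradation machinery of the ER, read 469 and 633 units (0.43), and Dnajb11, another co-chaperone, 89.8 and 121 (0.43). Hsp90b1, the ER member of the Hsp90 family, read 1437 and 1692 units (0.24). The brightest member, Hspa5, the main ER chaperone also called BiP, read 1785 and 1893 units (0.08). Xbp1, a transcription factor of the unfolded protein response, was the 1 member with a lower signal (-0.08). Ddit3, the stress factor also called CHOP, was Present at 19.6 units in sham and Marginal at 28.3 in ADX (0.53).

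At ZT14 the direction of the chaperones was turned. There 11 of the 13 had a lower signal in ADX and the median was -0.34, beside 0.03 over all measured genes. Creld2 read 416 units in sham and 243 in ADX at ZT14, and Dnajb9 read 367 and 202. Both ADX arrays therefore lay close together for these genes (251 and 243 units for Creld2, 201 and 202 for Dnajb9), between the low sham ZT2 array and the high sham ZT14 array. Herpud1 read 1242 units in sham and 759 in ADX at ZT14. Atf4 and Ddit3, transcription factors of the stress response, kept a higher signal in ADX at ZT14 (0.21 and 0.36). The ZT2 pair and the ZT14 pair share no array. No test of the difference between them was possible with 1 array per group. The actin ratio of 3' to 5' signal, a sign of RNA quality, was 1.69 on sham ZT2, 1.89 on ADX ZT2, 1.71 on sham ZT14 and 1.73 on ADX ZT14, and its part in these differences was not tested.

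**Figure D4:**
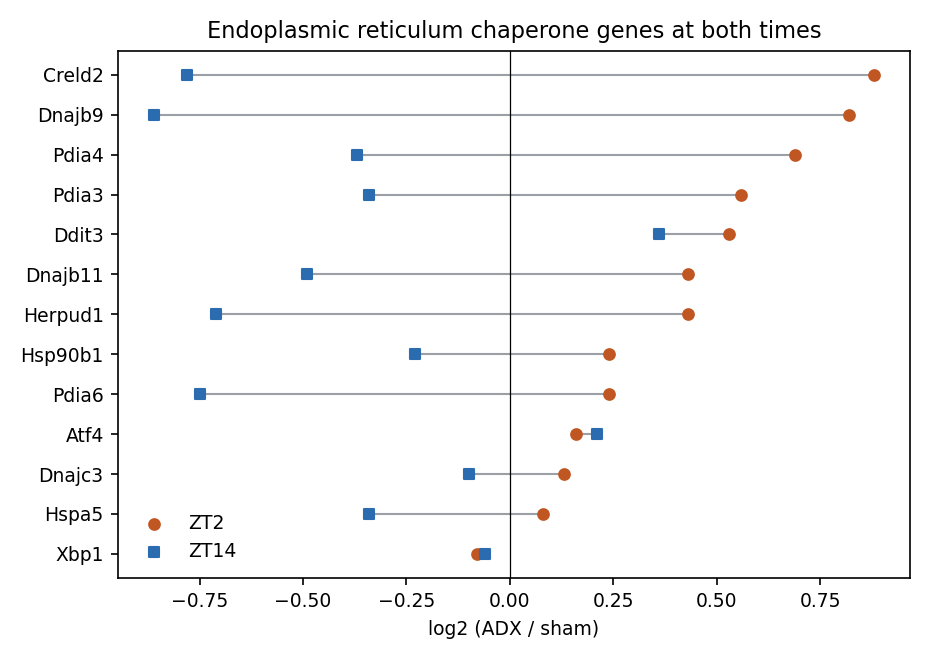
Log2 of ADX over sham for the 13 measured ER chaperone genes at ZT2 (circles) and ZT14 (squares), in order of the ZT2 value; each symbol is a difference between 1 ADX and 1 sham array. At ZT2, 12 of 13 lie above 0, and at ZT14, 11 of 13 lie below it.

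Promoters of 3 of these genes are shown for the element that the list is known for, with the same windows, motifs and capitals as above.
Creld2, chr15:88819396-88819645, plus strand: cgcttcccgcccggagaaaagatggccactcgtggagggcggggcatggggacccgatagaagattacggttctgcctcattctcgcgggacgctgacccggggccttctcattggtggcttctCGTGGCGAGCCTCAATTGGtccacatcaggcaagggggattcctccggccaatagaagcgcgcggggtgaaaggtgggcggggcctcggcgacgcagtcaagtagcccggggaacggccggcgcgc
Pdia6, chr12:17266339-17266588, plus strand: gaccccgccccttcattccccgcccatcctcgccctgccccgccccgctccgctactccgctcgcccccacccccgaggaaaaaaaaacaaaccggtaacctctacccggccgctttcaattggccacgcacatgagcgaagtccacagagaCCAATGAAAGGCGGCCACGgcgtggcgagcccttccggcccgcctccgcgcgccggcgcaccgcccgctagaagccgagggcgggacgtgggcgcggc
Dnajb9, chr12:44210069-44210318, minus strand: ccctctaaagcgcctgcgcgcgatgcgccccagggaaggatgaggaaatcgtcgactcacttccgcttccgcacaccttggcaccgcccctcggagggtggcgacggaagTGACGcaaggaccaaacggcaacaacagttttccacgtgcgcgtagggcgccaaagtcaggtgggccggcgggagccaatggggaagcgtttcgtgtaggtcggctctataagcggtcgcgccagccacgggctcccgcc
The endoplasmic reticulum stress element was held by Creld2 on the minus strand at -126 to -108 and by Pdia6 on the plus strand at -98 to -80. Dnajb9 held only TGACG, at -140 to -136. Pdia4, which is not shown, held only AGAACA, on the minus strand at -155 to -150. Of the 3 chaperone genes called at ZT2, Creld2 thus held the element and Dnajb9 and Pdia4 did not, while Pdia6 was not called. Of the 13 measured chaperone genes, all of which matched the promoter table, 5 held the element (Hspa5, Hsp90b1, Pdia6, Creld2 and Dnajc3), against 37 of all 32841 promoters (0.113%). Since the list is known for this element, that share describes the list and says nothing of these arrays. At ZT2 Hspa5 was at 0.08, Dnajc3 at 0.13, Pdia6 at 0.24, Hsp90b1 at 0.24 and Creld2 at 0.88 on the log2 scale. Other probe sets of Dnajc3 were at -0.12 and 0.58, and others of Pdia6 at -0.15 and 0.10.

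Other bright probe sets were also higher in ADX. Surf4 and Sec31a lie outside the naming rule and were picked after their values were seen. Surf4, a cargo receptor between the ER and the Golgi, read 400.2 units in sham and 631 in ADX at ZT2 and 488 and 692 at ZT14, higher at both times. Sec31a, a coat protein of vesicles that leave the ER, read 129 and 199.9 units at ZT2 (0.63) and was level at ZT14 (0.05). Arl1, a small GTPase of the Golgi, read 126 and 219 units (0.79), and Galnt1, a Golgi enzyme that starts O-glycosylation, 88.7 and 151 (0.77). Cant1, a nucleotidase of the ER and Golgi, read 83.4 and 164 units by an _f_at probe set (0.97) and 63.2 and 76.5 by its other one (0.28). Bag3, a co-chaperone of Hsp70, was higher by both probe sets, at 0.72 and 0.57. The first, an _f_at probe set, was at 0.55 and short of 1.5-fold with the signals as deposited. G0s2, an inhibitor of the lipase that opens triglyceride stores, read 138 and 236 units at ZT2 and 474 and 509 at ZT14. The 2 higher bright probe sets past 2-fold were 1110032A03Rik at 71.9 and 155 units, from an _r_at probe set, and 1 described as an immunoglobulin kappa V region, at 98.6 and 226 units. The immunoglobulin signal was also higher in ADX at ZT14, with 63.0 units in sham and 157 in ADX. That probe set matches several genes. The summed signal of the blood and immune markers was 1377 and 1397 units at ZT2 and 1184 and 1389 at ZT14, and its part in the immunoglobulin difference was not tested.

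Acute phase genes leaned higher. Of 22 measured members, 16 had a higher and 6 a lower signal in ADX, with a median of 0.14 that turned to -0.04 with the signals as deposited. A bright call upward was met by 1 member, beside 1.13% of all bright genes. Saa2, a serum amyloid A apolipoprotein and the 1 member called, read 224 units in sham and 378 in ADX at ZT2 and 296 and 367 at ZT14. Its probe set is of the _f_at kind. With the signals as deposited Saa2 fell short of 1.5-fold (0.58). Orm2, an acid glycoprotein of plasma, read 53.6 and 84.3 units at ZT2 (0.65) and 52.6 and 93.2 at ZT14 (0.83), both ADX arrays above both sham arrays. The fibrinogen chain genes Fga and Fgb were lower at ZT2 (-0.30 and -0.17).

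Other bright calls that were lower in ADX included genes with a lower signal at both times. Phlda1, a pleckstrin homology protein, read 190.0 units in sham and 73.2 in ADX at ZT2, 2.6-fold lower, and 247 and 141 at ZT14. Cfhr2, a complement factor H-related gene, read 1393 and 624 units at ZT2 and 1361 and 795 at ZT14, by an _f_at probe set. A second _f_at probe set described as a complement factor H-related clone read 1261 and 733 units at ZT2 and 1308 and 779 at ZT14. These probe sets can share family transcripts and are not separate evidence. The dim probe set of Cfhr2 that is not of that kind read 25.9 and 21.8 units (-0.25). Tmem70, an assembly factor of the mitochondrial ATP synthase, read 212 and 124 units at ZT2 and 318 and 125 at ZT14. Rdh11, a retinol dehydrogenase, read 302 and 178 units at ZT2 and 122 and 83.4 at ZT14, by an _f_at probe set.

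H3c14, a histone gene, was 4.36-fold lower in ADX at ZT2, with 489 units in sham and 112 in ADX, against 113 and 81.1 at ZT14. Its _r_at probe set is built under relaxed rules of probe choice, and the sham ZT2 array alone stood apart. Upp2, a uridine phosphorylase of liver with a strong daily rhythm, read 462 and 303 units at ZT2 and 1869 and 1712 at ZT14. Its 1.53-fold call was lost with quantile normalization, at -0.58.

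Of the 40 2-fold calls Present on both arrays, 32 had a mean signal under 100 units. Cyp26a1, the enzyme that clears retinoic acid, read 39.1 units in sham and 107 in ADX at ZT2, 2.74-fold higher, and 25.3 and 53.3 at ZT14, 2.1-fold higher. Its neighbour in function Aldh1a1, which makes retinoic acid, read 4213 and 4222 units (0.00). Hmox1, the inducible haem oxygenase, read 29.9 and 60.9 units (1.03). It was under 2-fold with the signals as deposited (0.85) and with quantile normalization (0.97). Utp20, a nucleolar protein of ribosome assembly, read 21.8 and 48.8 units, and Wdr43, of the same process, 25.9 and 61.6. Egr1, an immediate early transcription factor, read 76.3 units in sham and 34.2 in ADX at ZT2 and was Absent at 10.7 and 14.3 at ZT14. Ifit1, an interferon-induced gene, read 29.0 and 14.4 units and was the 1 called gene of 21 measured interferon and antigen presentation genes, whose median was -0.15. Over all measured genes, 0.77% were past 2-fold lower. Socs2 and Cish, feedback inhibitors of growth hormone signalling that lie outside the naming rule, were each at -0.97, just short of 2-fold. In the additive fit over both times the operation effect was -0.10 for Socs2 (SE 0.46) and -0.80 for Cish (SE 0.18). Of 18 measured growth hormone and sex-biased genes, 13 had a lower and 5 a higher signal in ADX at ZT2, with a median of -0.15. Cyp2b9, a cytochrome P450 known as female-biased, was Absent at 9.0 units in sham and Present at 29.8 in ADX at ZT2, and Absent at 6.3 and Present at 238 at ZT14.

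Read at ZT14, the ZT2 bright calls kept their sign in 31 of 45 probe sets (68.9%), beside 55.1% of the 1899 bright probe sets not called. Of the 22 lower calls, 17 had a lower signal at ZT14 and 7 were past 1.5-fold the same way, where 3.89% of all bright probe sets at ZT14 were past it downward. Those 7 probe sets are not 7 separate genes. They include both probe sets of Errfi1 and the 2 factor H-related ones, which can share transcripts. Of the 23 higher calls, 14 had a higher signal at ZT14 and 1 was past 1.5-fold the same way, the immunoglobulin probe set, where 2.51% of all were past it upward. In the other direction, 5 calls were past 1.5-fold at ZT14, 1 of them a lower call (Gstm6, a glutathione transferase outside the naming rule, at -0.66 and 0.60) and 4 of them higher calls (Creld2, Dnajb9, glucokinase and Otud4). The Gstm6 values are those of its dimmer probe set, and its brighter one had no bright call. With quantile normalization the share with the same sign was 59.5% of 42 calls.

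**Figure D5:**
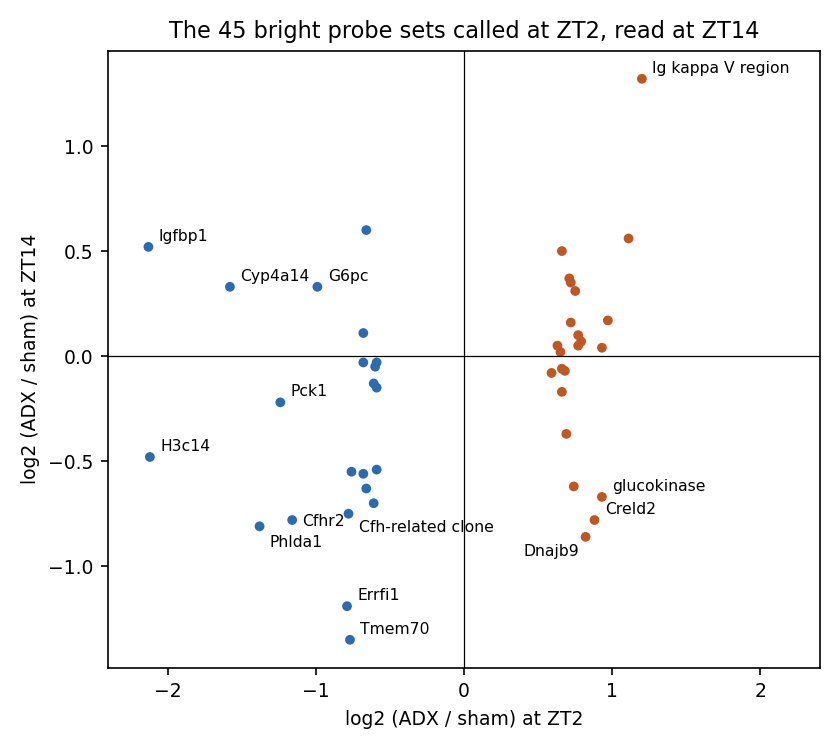
The 45 bright probe sets called at ZT2, with log2 of ADX over sham at ZT2 on the horizontal axis and at ZT14 on the vertical axis; points are single differences between arrays, coloured by their ZT2 direction. Of the 22 points on the left, 17 lie below 0 at ZT14, and of the 23 on the right, 14 lie above it.

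Over both times together, the limma fit of operation and time, with 1 residual degree of freedom, called 0 of 5872 probe sets at an adjusted p under 0.05, while 329 had an unadjusted p under 0.05. Of the 45 bright calls, 17 had an unadjusted p under 0.05 in that fit, beside 5.6% of all probe sets tested; the ZT2 arrays enter both, so the count adds no independent support. The only residual of this fit is the change of the operation difference between the times. Genes with a like gap at both times therefore had the smaller errors by construction. The operation effect of Cyp26a1 was 1.26 (SE 0.18, adjusted p = 0.83, limma), that of Cfhr2 -0.97 (SE 0.18) and that of Phlda1 -1.09 (SE 0.21). For Igfbp1 it was -0.80 with an SE of 0.68, and for Creld2 0.05 with an SE of 0.44, since their ZT2 and ZT14 differences lay far apart. Lpin1, lower at both times by unlike amounts, was at -1.97 with an SE of 0.47.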

How the data were processed

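Total RNA from liver was hybridised to 4 Affymetrix MG_U74Av2 arrays, 1 per group (sham or ADX, ZT2 or ZT14). Per the file headers, the deposited values are an intensity per probe set from each array alone (absolute Signal), with a detection p-value, which was used only through its deposited Present, Marginal or Absent call. Which software made them, and with what scaling, is not given in the sources. The run sheets show 1 fluidics station and 1 day for the 4 arrays. The number of arrays limits the precision.

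Each array was multiplied by a factor (0.925 sham ZT2, 1.043 ADX ZT2, 0.977 sham ZT14, 1.067 ADX ZT14) to a common 2% trimmed mean. Signals were set to at least 3.91 units, the median Absent signal, before log2. Control probe sets (66) were dropped. Symbols came from the platform table: 10833 probe sets had 1, 396 several and 1193 were not listed. Each gene stands for its brightest probe set over the 4 arrays. Where the dimmer array was not Present, a fold is a lower bound, taken against the dim signal or the floor, whichever is higher.

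The genes, lists and rules were chosen with earlier results of these data known. Named are genes past 2-fold with a mean signal of 100 units or more, the 12 highest and 12 lowest bright genes, called list members, measured members of 4 lists (glucocorticoid targets, glucose output, amino acid breakdown, core clock), the 6 highest and 6 lowest 2-fold genes under 100 units, the 5 genes in each direction whose difference changed most between times, and marker genes past 2-fold. Others are described as list members or as picked after their values were seen. The ZT2 pair was described by rules of size, with no p-value. The operation effect was fitted with limma 3.58.1 (R 4.3.3, lmFit and eBayes, Benjamini-Hochberg) on probe sets Present on at least 2 arrays; nothing says that arrays stand for separate animals, so its p-values reflect only how these arrays spread, which may be technical. The steps were tested on simulated data. The rest used Python 3.11.15, pandas 2.3.3 and NumPy 2.4.6. Alternatives covered scaling, floor, detection call, fold, signal minimum and choice of probe set.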

Additional observations from a re-analysis of the deposited data

Results flagged for a closer look

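Of the 45 bright calls at ZT2, 5 were past 1.5-fold the other way at ZT14. Over all bright probe sets at ZT14, 2.51% were past 1.5-fold higher and 3.89% lower. The log2 difference at ZT2 minus that at ZT14 was 1.66 for Creld2, 1.68 for Dnajb9 and 1.36 for Otud4, whose probe set is an _f_at design. The others were glucokinase, at 0.93 at ZT2 and -0.67 at ZT14, and the dimmer probe set of Gstm6, at -0.66 and 0.60. The brighter probe set of Gstm6 had no bright call. The list of endoplasmic reticulum chaperones had a median log2 difference of 0.43 at ZT2 and -0.34 at ZT14. With 1 array per group, the difference between the times was not tested for any of these.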

How the results depend on the processing

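No paired analysis was possible because each group has 1 array and the labels give no replicate numbers, and for the same reason no replicate could be left out. The count of 160 probe sets past 2-fold became 77 with the floor doubled to 7.82 units, 24 with the floor at 16.6 units (the 90th percentile of Absent signals), 40 with Present calls needed on both arrays, 799 with no call needed and 25 at 3-fold. The 45 bright calls became 85 with the signals as deposited, of which 75 were lower, 96 with a mean signal of 50 units or more, 20 with 200 units or more and 8 at 2-fold. Chosen after seeing the data, leaving out _f_at, _i_at and _r_at probe sets kept 32 bright calls and 123 2-fold calls. The operation effect at adjusted p under 0.05 went from 0 to 1 probe set, adipsin, with a variance trend, with quantile normalization and with no term for time; adipsin entered the fit only through its Present calls on the ADX arrays. The medians of 12 lists moved by less than the 0.20 spread between probe sets of a gene under all 108 alternatives tried, though acute phase (-0.04), coagulation and complement (-0.11) and cholesterol synthesis (-0.07) turned negative with the signals as deposited. For the 27 named genes with a call, 154 of 162 alternatives kept it and 8 lost it; for the 3 without one, 1 alternative gave a call. None of the 162 reversed, and a reversal was scored only for genes with a call. The causes were not tested. Dim probe sets limit the rest, since the spread between the arrays was widest there and 42 of the 160 2-fold calls had their dimmer signal at the floor.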
